A study of Homo sapiens with 5 samples.

Results

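The NRF2 antioxidant program was followed through 34 genes, chosen by symbol, with no measured value in the rule: the transcription factor gene NFE2L2, which encodes NRF2, its inhibitor KEAP1, and 32 genes known as partners or targets of NRF2. These genes were chosen with earlier results of these data known, so the comparisons with all genes below describe and do not test. All 34 were found among the 36601 genes of the matrix. RNA and open chromatin (ATAC) were read from the same nuclei of the lung adenocarcinoma lines A549, HCC827, H838, H1975 and H2228 with the 10× Multiome protocol. The lines were cultured apart in the same medium, mixed in equal numbers before the nuclei were isolated and sorted, and captured together. The droplets were divided into an 80% and a 20% portion, from each of which 1 RNA library and 1 ATAC library were made, so differences between lines carry no replicate check and no p-value is given. The 80% matrix held 6557 nuclei with 95455518 RNA UMIs (molecule counts), and the 20% matrix 1286 nuclei with 14346346 UMIs. A total of 159 barcodes were called in both portions, which was 2.42% of the 80% and 12.4% of the 20% barcodes.

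NRF2 is a transcription factor that switches on genes for detoxification, glutathione and thioredoxin metabolism, NADPH supply and iron handling. In unstressed cells KEAP1 binds it and hands it to the CUL3 ubiquitin ligase for destruction, while oxidants and electrophiles block this step. In lung adenocarcinoma KEAP1 is often inactivated, which leaves the program switched on, and of the 5 lines A549 and H838 are known to carry such a change. The question asked of the data was how the levels of these genes and the open chromatin around them differed between the lines.

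Nuclei were grouped by RNA clustering in which no member, no further gene of the pathway and no line marker took part. The rule gave 5 clusters. Cluster 0 held 2485 nuclei and was led by NLGN1, PPP2R2B, MEG3 and MEG8, cluster 1 held 1460 nuclei and was led by RBFOX3, ST6GAL2 and NTRK3, and cluster 2 held 1453 nuclei with LINC02055 and CARD18 in the lead. Cluster 3 held 836 nuclei and was led by PLK5, DHRS2 and ZNF676, and cluster 4 held 323 nuclei and was led by AC090578.1, KCNH7 and RPE65. Cluster 4 was HCC827-like, with the genes of the amplified EGFR region far above the other clusters (EGFR 7335 CPM, counts per 1000000 UMIs of the cluster, against 78.5 to 468). Of the RNA markers of A549, cluster 1 was the highest in ALDH1A1 (5354 CPM against 88.1 to 198), TM4SF4 (506 CPM against 12.2 to 19.6) and ALDH3A1 (904 CPM), although ALDH3A1 also reached 652 CPM in cluster 0 and is itself a reported NRF2 target. The deletion known in A549, which removes CDKN2A, CDKN2B and MTAP, did not single out cluster 1. ATAC counts at the start of CDKN2A were 0.615, 0 and 0.320 per 1000000 in clusters 0, 1 and 2, against 35.7 and 78.6 in clusters 3 and 4. CDKN2A RNA was 8.93, 13.5 and 7.68 CPM in clusters 0, 1 and 2. MTAP went against the name in cluster 1, with 51.7 CPM of RNA and 36.1 ATAC counts per 1000000, whereas clusters 0 and 2 had 4.57 and 1.78 CPM and 1.57 and 0 per 1000000. Cluster 1 is therefore called by its number, and clusters 0 to 3 were not tied to A549, H838, H1975 or H2228, so neither line with a known KEAP1 change has a cluster of its own name here. By ATAC, 439 nuclei of cluster 3 fell into a part 3a, 349 into a part 3b and 48 into other ATAC clusters, and the number of lines in it was not tested. Doublet calls, which were kept, made up 0.619% of the nuclei in cluster 2 to 10.6% in cluster 3. Markers of other cells were at or near 0 (PTPRC, CD3E, LYZ and DCN at most 0.739 CPM, and PECAM1 at most 8.72 CPM), except COL1A1, which had 19.3 to 242 CPM.

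NRF2 binds, together with a small Maf protein, to the antioxidant response element, whose core is written here as TGACNNNGC and was searched on both strands. The core was present in the central 500 bp of 23.1% of 158289 peaks, in 22.3% of the peaks near gene starts and in 14 of the 34 members' main start peaks (41.2%). Among promoters of 300 bp from RefSeq on hg38, it was present in 13.3% of 35116 and in 7 of 27 members with an entry (25.9%). The narrower form TGACTNAGC was present in the central 500 bp of 5.12% of all peaks, in 3.93% of those near gene starts and in 8 of the 34 members' main start peaks (23.5%), and in 1.12% of all promoters and 4 of 27 members' promoters (14.8%). The peak sets are unlike, since a member's main start peak is the one with the most counts, whereas the peaks near gene starts include all of them. No share was computed for the main start peaks of all genes, so no excess is drawn from the peak shares. For each member called in RNA, the main start peak and the peak within 50 kb that differed most between clusters were searched. These peaks were searched over their whole length. No share over all peaks was computed for that length, and no excess is drawn from the following counts. Of 28 such members, the core was found for 20. Its narrower form, which was chosen for printing after the matches were seen, was found for 14. Distances below are to the GENCODE start nearest the peak centre, among starts inside the start interval annotated for the gene in the matrix. Sequences of 29 bases around the narrower form are given for 13 of these members, GSR being left out. They were read from hg38 inside the peaks called by the authors, 5′ to 3′ on the strand of the core, with the core in capitals. They are shown because the ATAC counts of these peaks are compared between the clusters further on:
NQO1, chr16:69726997-69727025, minus strand, core -342 bp from the start: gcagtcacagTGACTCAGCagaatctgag
GCLC, chr6:53548239-53548267, plus strand, core -46 bp from the start: cgcctccccgTGACTCAGCgctttgtgcg
GCLM, chr1:93909446-93909474, plus strand, core -3 bp from the start: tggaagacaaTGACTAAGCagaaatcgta
ME1, chr6:83431170-83431198, minus strand, core -132 bp from the start: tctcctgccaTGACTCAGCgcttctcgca
SQSTM1, chr5:179820543-179820571, minus strand, core -329 bp from the start: ggcctggccaTGACTCAGCaatatcctca
GPX2, chr14:64942849-64942877, plus strand, core -116 bp from the start: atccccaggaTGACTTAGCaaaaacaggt
PIR, chrX:15493289-15493317, plus strand, core 31 bp from the start: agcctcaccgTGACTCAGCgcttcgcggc
AKR1C3, chr10:5071898-5071926, minus strand, core -5727 bp from the start: ctatgcaagaTGACTCAGCattttaaagg
FTL, chr19:48963932-48963960, plus strand, core -1364 bp from the start: gagctcagcaTGACTCAGCagtcgctgcc
BLVRB, chr19:40464554-40464582, plus strand, core 1178 bp from the start: gatttccaggTGACTCAGCgcctctcaac
MAFG, chr17:81926957-81926985, plus strand, core 738 bp from the start: ctcacgctgaTGACTCAGCaagtctccct
SLC7A11, chr4:138235686-138235714, plus strand, core 6650 bp from the start: ctattcagagTGACTTAGCactattcagt
PGD, chr1:10415591-10415619, minus strand, core 16540 bp from the start: acacacaggaTGACTTAGCatttctagaa
The core TGACTCAGC, which 9 of these sequences share, also contains TGACTCA, the element of the AP-1 factors. The core in GCLM and in PIR lies beside or just inside the first exon, those of AKR1C3, BLVRB, MAFG and SLC7A11 lie in peaks placed in introns, and the others lie in peaks that touch an exon, for FTL an exon of another annotated gene. A match is a sequence feature and not evidence of binding.

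Clusters 1 and 0 had the highest share of their RNA on the 34 genes. Per nucleus, the median share was 1.85% of UMIs in cluster 0, 2.81% in cluster 1, 1.14% in cluster 2, 0.761% in cluster 3 and 0.706% in the HCC827-like cluster 4. The interquartile range of nuclei was 1.56% to 2.20% in cluster 0 and 2.45% to 3.15% in cluster 1, against 1.02% to 1.28%, 0.666% to 0.885% and 0.600% to 0.862% in clusters 2, 3 and 4. Cluster 1 was nearly separate from clusters 2 to 4, because 98.2% of its nuclei lay above 1.56%, the lower quartile of cluster 0, as did 4.13%, 2.27% and 2.48% of the nuclei in clusters 2, 3 and 4. Of the nuclei above that value, 4 of 60 in cluster 2, 18 of 19 in cluster 3 and 3 of 8 in cluster 4 were called doublets. Clusters 0 and 1 overlapped more, with 13.9% of the nuclei of cluster 0 above 2.45%, the lower quartile of cluster 1. In the 20% portion the medians were 1.78%, 2.66%, 1.11%, 0.703% and 0.648% for clusters 0 to 4, in the same order. Median depth ran from 9153.5 UMIs in cluster 1 to 15879.5 in cluster 3, and the order stayed the same with every nucleus thinned to 1000 UMIs. All values are shares of a nucleus' RNA, so the amount of RNA per nucleus was not measured by them.

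**Figure D1:**
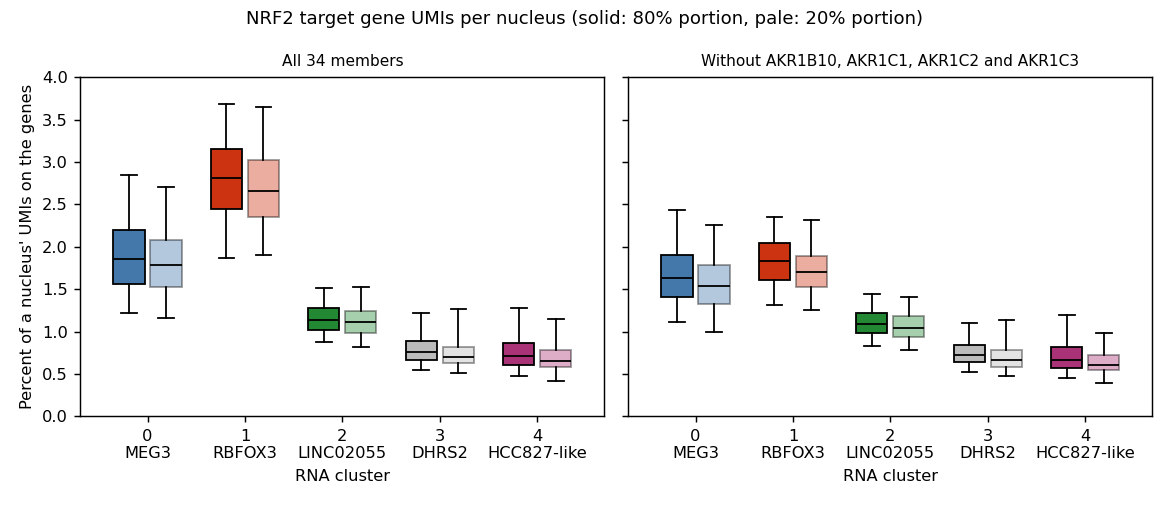
Percent of a nucleus' UMIs (y axis) on the NRF2 genes by RNA cluster, for all 34 members (left) and without 4 aldo-keto reductases (right); boxes give quartiles and median, whiskers the 5th and 95th percentiles of nuclei, solid for the 80% and pale for the 20% portion. Cluster 1 has the highest median on the left (2.81%), and clusters 1 and 0 lie close together on the right (1.83% and 1.63%).

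The distance between clusters 0 and 1 came largely from 4 aldo-keto reductase genes. AKR1B10, AKR1C1, AKR1C2 and AKR1C3 made up 34.2% of the members' UMIs in cluster 1, 12.6% in cluster 0 and 4.03% to 7.14% in clusters 2 to 4. Without them the medians were 1.63%, 1.83%, 1.09%, 0.726% and 0.662% in clusters 0 to 4. Without the abundant FTL, FTH1, TXN and PRDX1 they were 1.17%, 1.99%, 0.552%, 0.352% and 0.335%. The order of the 5 clusters was the same in each case.

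Gene by gene, the members were called higher or lower in a cluster when their summed CPM was at least 2-fold above or below the mean of the other 4 clusters. All 34 passed the minimum mean of 10 CPM, and 28 were called in at least 1 cluster, as were 37.8% of the 10561 genes that passed. In cluster 0, 8 members were higher and 3 lower, against 5.78% and 9.50% of all genes. In cluster 1, 13 were higher and 0 lower, against 5.79% and 10.7%. Cluster 2 had 2 higher and 11 lower, against 7.84% and 15.7%. Cluster 3 had 1 higher and 23 lower, against 3.94% and 8.70%, and cluster 4 had 0 higher and 21 lower, against 4.89% and 10.4%. These counts depended on the reference: with the median of the other clusters in place of their mean, cluster 0 had 15 higher and 0 lower (7.46% and 6.08% of all genes) and cluster 1 had 20 higher and 0 lower (7.33% and 8.01%). Clusters 2, 3 and 4 then had 2, 1 and 0 higher (9.23%, 5.87% and 6.29%) and 8, 19 and 19 lower (13.6%, 4.99% and 7.25%). The median log2 fold of the members was 0.51, 0.75, -0.55, -1.27 and -1.22 in clusters 0 to 4, while that of all genes lay between -0.14 and -0.02. Clusters 0 and 1 were both above each of clusters 2, 3 and 4 in 23 of the 34 members and in 10.6% of all genes. The levels of a member also spread more widely, with a median of 4.60 for the ratio of its highest to its lowest cluster against 2.16 for all genes. The members never called were NFE2L2, KEAP1, TXN, FTH1, PRDX1 and ABHD4.

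**Figure D2:**
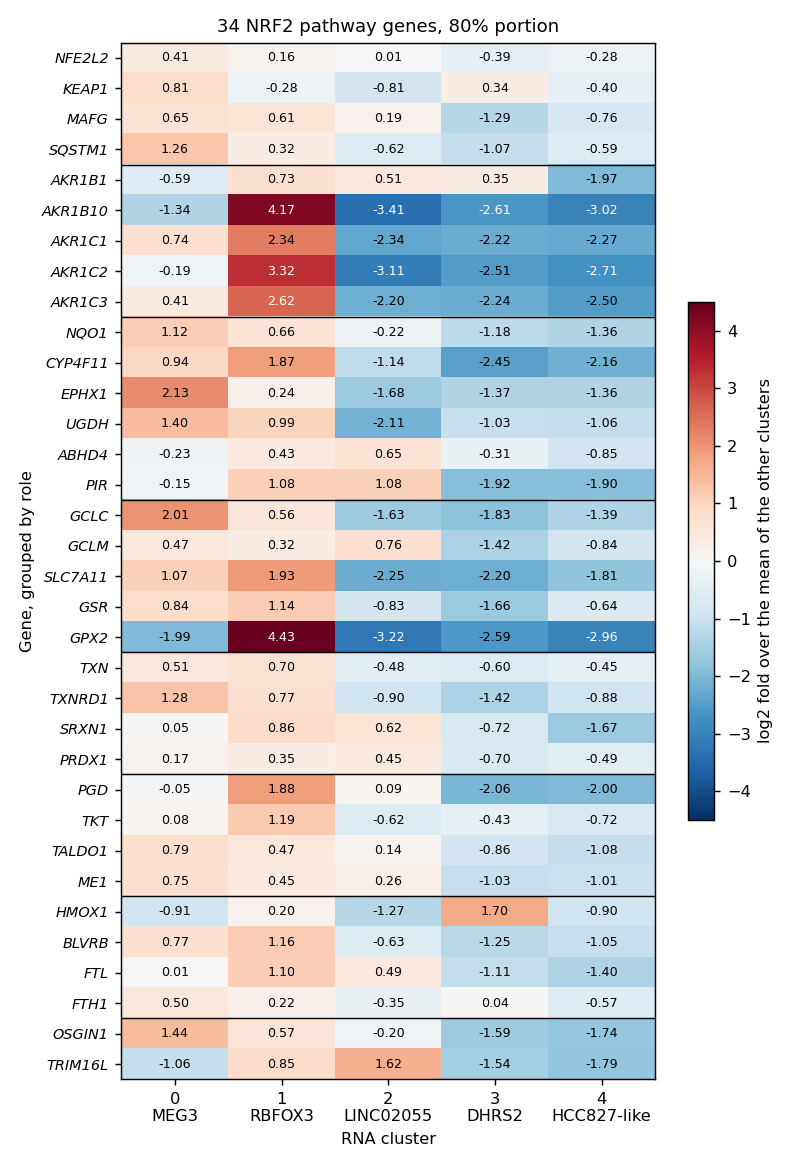
log2 fold of the summed CPM of each RNA cluster (columns) over the mean of the other 4 clusters, for the 34 members (rows, grouped by role), 80% portion, 1 library. Red marks higher and blue lower values. Clusters 0 and 1 are mostly red, and clusters 3 and 4 mostly blue. Among the exceptions are HMOX1 in cluster 3 (1.70) and GPX2 (-1.99), AKR1B10 (-1.34) and TRIM16L (-1.06) in cluster 0. In cluster 2, TRIM16L has the highest value (1.62).

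Of the genes of the NRF2 switch, NFE2L2 and KEAP1 themselves were called in no cluster. NFE2L2 had 251 CPM in cluster 0, 219 in cluster 1, 202 in cluster 2, 160.1 in cluster 3 and 171 in cluster 4, so clusters 0 and 1 were above clusters 3 and 4, with folds of 0.762 to 1.33 over the mean of the others. KEAP1 had 63.6, 35.3, 25.4, 49.9 and 32.8 CPM in clusters 0 to 4, and clusters 1 and 4 did not differ beyond their counting intervals (32.4 to 38.5 and 27.9 to 38.5). RNA of KEAP1 was thus present in every cluster, and these counts do not show whether its protein was intact. SQSTM1, which encodes the autophagy adaptor p62 that captures KEAP1, had 730.2 CPM in cluster 0 against 462, 272, 207 and 276 in clusters 1 to 4, and was called higher there and lower in cluster 3. MAFG, the small Maf partner of NRF2, had 95.1, 93.1, 74.8, 30.7 and 42.9 CPM and was called lower in cluster 3.

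The aldo-keto reductases, which reduce reactive aldehydes, ketones and steroids, made up 36.0% of the members' UMIs in cluster 1 and 7.77% to 13.8% in the other clusters. AKR1B10, which reduces retinal and lipid aldehydes, had 463 CPM in cluster 0, 4217 in cluster 1, 118 in cluster 2, 202 in cluster 3 and 153 in cluster 4. Cluster 1 stood 18.0-fold above the mean of the others. AKR1B10 was called lower in the remaining clusters, and the calls of clusters 0 and 3 rest on the level of cluster 1 in that mean. They were lost when the median of the other clusters was used, while those of clusters 2 and 4 were kept. The log2 fold of cluster 0 then went from -1.34 to 1.38. In clusters 2 to 4 AKR1B10 stood at 2.79% to 4.78% of its level in cluster 1, close to ALDH1A1 (1.65% to 3.61%) and TM4SF4 (2.41% to 3.33%). Without doublet calls these were 2.38% to 2.64%, 1.39% to 1.56% and 1.80% to 2.29%, and no difference among clusters 2 to 4 is drawn from AKR1B10 at such levels. In cluster 0 it stood at 11.0%, and at 8.61% without doublet calls, against 1.45% for ALDH1A1. Cluster 0 was therefore above the level of these markers and 9.09-fold below cluster 1.

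AKR1C1, AKR1C2 and AKR1C3, which act on steroids and prostaglandins and lie side by side on chromosome 10, were also highest in cluster 1, followed by cluster 0. AKR1C1 had 487, 924, 77.1, 83.6 and 80.6 CPM in clusters 0 to 4. AKR1C2 had 478, 1905, 74.3, 111 and 97.0 CPM, and AKR1C3 946, 2304, 195, 190.4 and 159 CPM. Each was called higher in cluster 1 and lower in clusters 2, 3 and 4, and the near-identical AKR1C1 and AKR1C2 can trade reads, so their separate values are uncertain. AKR1B1, the aldose reductase, differed from the AKR1C genes, with 236, 486, 435, 399 and 98.3 CPM in clusters 0 to 4. It was called lower in cluster 4 and reached levels in clusters 2 and 3 above that of cluster 0.

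Among the other detoxifying enzymes, cluster 0 led in NQO1, EPHX1 and UGDH. NQO1, the quinone reductase often used as the reporter of NRF2 activity, had 2192, 1765, 1102, 618 and 554 CPM in clusters 0 to 4, and was called higher in cluster 0 and lower in clusters 3 and 4. EPHX1, the microsomal epoxide hydrolase, had 429.8 CPM in cluster 0, 186 in cluster 1 and 58.5 to 72.3 in clusters 2 to 4, and had the same calls as UGDH. It was the only member at least 2-fold higher in cluster 0 than in cluster 1 (2.30-fold, against 10.4% of all genes). UGDH, which makes the glucuronic acid donor for conjugation, had 519, 432, 70.4, 142 and 139 CPM, and was called higher in cluster 0 and lower in clusters 2, 3 and 4.

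CYP4F11, a cytochrome that hydroxylates fatty acids and vitamin K, was low in all clusters but differed between them, with 27.4, 40.7, 7.88, 2.83 and 3.63 CPM in clusters 0 to 4, and was called higher in cluster 1 and lower in clusters 2 to 4. Its count in cluster 4 was 17 UMIs (95% exact Poisson interval 2.11 to 5.80 CPM, counting error only). PIR, an iron-binding nuclear protein, had 73.9 CPM in cluster 0, 139.6 in cluster 1, 139 in cluster 2, 24.1 in cluster 3 and 24.5 in cluster 4. Clusters 1 and 2 did not differ beyond counting error, and PIR was called higher in both and lower in clusters 3 and 4. ABHD4, a lysophospholipase, had 6.82 to 17.1 CPM and was called in no cluster.

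Of the glutathione genes, GCLC, SLC7A11 and GSR had higher levels in clusters 0 and 1 than in clusters 2 to 4, whereas GCLM was highest in cluster 2 and GPX2 stood out in cluster 1 alone. GCLC, the catalytic subunit of the first enzyme of glutathione synthesis, had 357, 191, 52.2, 46.0 and 61.2 CPM in clusters 0 to 4, and was called higher in cluster 0 and lower in clusters 2, 3 and 4. GCLM, its modifier subunit, had 384, 355, 444, 127 and 182 CPM, with cluster 2 the highest. In cluster 2 the subunits therefore parted, GCLM being at the level of clusters 0 and 1 or above while GCLC was among the lowest. SLC7A11, which imports cystine for glutathione, shared the low level of GCLC in clusters 2 to 4, with 323, 456, 45.8, 47.5 and 61.4 CPM, and was called higher in both clusters 0 and 1. GSR, which recycles oxidised glutathione, had 114, 131, 44.8, 26.3 and 50.3 CPM and was called higher in cluster 1 and lower in cluster 3.

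GPX2, a glutathione peroxidase, resembled AKR1B10, with 53.1, 771, 22.8, 35.4 and 27.5 CPM in clusters 0 to 4. Cluster 1 stood 21.6-fold above the mean of the others and 14.3-fold above cluster 0. Clusters 2 to 4 were at 2.96% to 4.59% of cluster 1, again close to ALDH1A1 and TM4SF4, and cluster 0 was at 6.89%, or 4.65% without doublet calls. GPX2 was called lower in clusters 0, 2, 3 and 4, and all of these calls were lost with the median of the other clusters. The log2 fold of cluster 0 then went from -1.99 to 0.74.

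**Figure D3:**
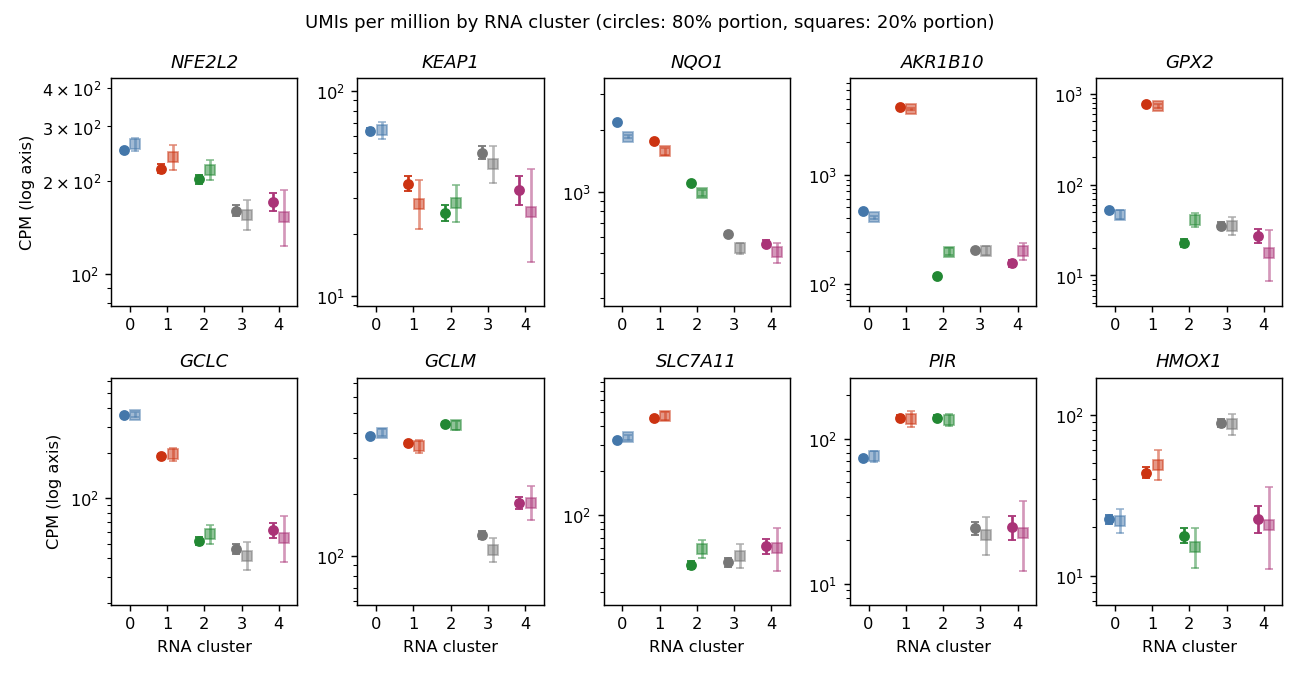
CPM (log axes, each with its own range) of 10 members in RNA clusters 0 to 4 of the 80% (circles) and the 20% portion (squares), with exact 95% Poisson intervals of the summed UMIs, which cover counting error only. AKR1B10 and GPX2 stand out in cluster 1, GCLC and SLC7A11 in clusters 0 and 1, GCLM is highest in cluster 2 (444 CPM), and HMOX1 in cluster 3 (88.7 CPM).

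In the thioredoxin system, which reduces oxidised proteins, TXNRD1 and SRXN1 passed 2-fold in a cluster, and TXN and PRDX1 did not. TXNRD1, the thioredoxin reductase, had 2011, 1589, 628, 455 and 636 CPM in clusters 0 to 4, and was called higher in cluster 0 and lower in cluster 3. Its substrate TXN had 1051 to 2136 CPM and was called in no cluster, with clusters 0 and 1 the highest. SRXN1, the sulfiredoxin that repairs peroxiredoxins, had 45.0, 69.0, 61.3, 28.4 and 15.4 CPM and was called lower in cluster 4. PRDX1, a peroxiredoxin, had 846 to 1619.8 CPM, was highest in cluster 2 and was called in no cluster.

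The genes grouped here under NADPH supply were highest in cluster 1 or 0. PGD, of the pentose phosphate pathway, had 196, 486, 212, 56.4 and 58.9 CPM in clusters 0 to 4, and was called higher in cluster 1 and lower in clusters 3 and 4. TKT, the transketolase of the same pathway, had 579, 1009, 387, 435 and 366 CPM and was called higher in cluster 1. TALDO1, the transaldolase, had 492, 419, 352, 197 and 172 CPM and was called lower in cluster 4. ME1, the cytosolic malic enzyme, had 219.9, 189, 171, 80.7 and 81.7 CPM, and its calls of lower in clusters 3 and 4 lay at the threshold (log2 folds of -1.03 and -1.01).

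Haem and iron genes held the only member that was highest in cluster 3. HMOX1, the stress-induced haem oxygenase, had 22.4, 43.7, 17.8, 88.7 and 22.6 CPM in clusters 0 to 4, and was called higher in cluster 3 (3.25-fold) and lower in cluster 2. Within cluster 3 it had 122 CPM in 3a and 39.1 CPM in 3b. Of the 31 members that passed 10 CPM there, HMOX1 was the only 1 at least 2-fold apart between these parts with the pseudocount of 1 CPM, against 8.61% of all genes. GSR lay at that limit, with 31.6 CPM in 3a and 15.4 CPM in 3b.

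BLVRB, a biliverdin and flavin reductase, had 251, 303, 117, 79.5 and 90.2 CPM in clusters 0 to 4 and was called higher in cluster 1 and lower in clusters 3 and 4. FTL, the ferritin light chain that stores iron, had 1543, 2667, 1986, 796 and 664 CPM and was called higher in cluster 1 and lower in clusters 3 and 4. FTH1, the ferritin heavy chain, had 1042 to 1891 CPM and was called in no cluster. Both ferritin genes have many processed copies in the genome, which makes their counts less certain.

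OSGIN1, a growth regulator induced by oxidative stress, had 42.1, 27.9, 18.0, 7.14 and 6.40 CPM in clusters 0 to 4 and was called higher in cluster 0 and lower in clusters 3 and 4. TRIM16L, a close copy of TRIM16 with which it can trade reads, had 36.1, 107, 150.2, 26.5 and 22.4 CPM and was called higher in cluster 2 and lower in clusters 0, 3 and 4. It shared with PIR, GCLM and FTL a level in cluster 2 that was well above cluster 3. At least 2-fold higher in cluster 2 than in cluster 3 were 9 of 33 members with 10 CPM (11.4% of all genes), namely GCLM, SRXN1, PGD, ME1, OSGIN1, TRIM16L, FTL, PIR and MAFG, whereas HMOX1 and UGDH were lower by that margin (13.0% of all genes). Between the highest clusters, 7 members were at least 2-fold higher in cluster 1 than in cluster 0 (9.57% of all genes): AKR1B10, AKR1C2, AKR1C3, AKR1B1, PGD, TRIM16L and GPX2. In the 20% portion SRXN1 (log2 ratio of cluster 2 to cluster 3 of 0.83), UGDH (-0.72) and AKR1B1 (log2 ratio of cluster 1 to cluster 0 of 0.94) fell short of 2-fold, and the other members named here passed it.

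The second library gave nearly the same picture, although it came from the same pool of nuclei and is not an independent culture. Of the 82 calls, 80 were also made in the 20% portion and 0 were opposite. No such share was computed for the calls of all genes, so this is not a trait of the members. The 20% portion had 86 calls in all, among them higher KEAP1 in cluster 0. The calls of the 80% portion not made there were lower ME1 and lower UGDH in cluster 4, where the 20% portion had 54 nuclei. The highest cluster was the same in both portions for 33 of the 34 members, and for 79.4% of all genes.

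Open chromatin at the starts passed 2-fold in fewer members than RNA did. The shares of all genes were likewise lower in ATAC than in RNA in every cluster. ATAC counts in peaks within 1000 bp of the annotated start interval, per 1000000 ATAC counts of the cluster (ATAC CPM), passed a mean of 10 for 31 members, with AKR1C1, AKR1C2 and TRIM16L below it. For some members this interval covers a long stretch of the gene. Summed were 20 peaks for TXNRD1, 15 for NFE2L2, 8 each for AKR1C3 and GCLC, and 5 for EPHX1. Such peaks can lie away from the starts in the interval, as did the main peak of AKR1C3, centred -5920 bp from the nearest of them. At 2-fold, 1 member was higher and 2 were lower in cluster 0 (1.78% and 5.54% of all genes), and 8 were higher and 0 lower in cluster 1 (5.19% and 5.30%). In cluster 2, 1 was higher and 2 were lower (5.19% and 7.13%), in cluster 3, 0 and 7 (1.67% and 5.92%), and in cluster 4, 0 and 6 (3.02% and 5.74%). The median log2 fold at the starts was 0.01, 0.50, -0.09, -0.56 and -0.29 in clusters 0 to 4, against -0.04, 0.14, 0.01, -0.22 and -0.13 for all genes. Of the 82 RNA calls, 70 were of members that passed this minimum. Of these, 64 had the same sign in ATAC (91.4%, against 88.2% of the calls of all genes), and 23 had an ATAC call in the same direction (32.9% against 31.4%), so the members were close to the background in both. In cluster 0, none of the 8 members called higher in RNA was called higher in ATAC. No such share was computed for all genes, of which 5.78% were higher in RNA and 1.78% in ATAC in that cluster. Nothing particular to the members is drawn from this count. CYP4F11, the only member called higher in ATAC there, had an RNA log2 fold of 0.94, which was no call.

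AKR1B10 and GPX2 were again the extremes. The start peak of AKR1B10 (chr7:134527029-134527919 of hg38) had 8.62, 78.5, 1.49, 3.54 and 7.39 ATAC CPM in clusters 0 to 4, a 12.7-fold excess of cluster 1 over the mean of the others. The start peak of GPX2 (chr14:64942424-64943345), which also overlaps the gene CHURC1 and holds the core printed above, had 4.14, 43.8, 0.959, 2.26 and 1.06 ATAC CPM. Both starts were thus open mainly in the cluster with the RNA.

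Peaks near other members also separated the clusters. For AKR1C3, the peak with the printed core, in an intron of its longer transcripts (chr10:5071285-5072153), had 22.3, 88.0, 41.2, 6.39 and 2.64 ATAC CPM in clusters 0 to 4. Cluster 2 was above cluster 0 in this peak, whereas its AKR1C3 RNA was 195 against 946 CPM. For FTL, the peak upstream of the start that holds its core (chr19:48963468-48964286) had 9.78, 29.6, 18.9, 4.52 and 4.22 ATAC CPM, in the same order of clusters as the FTL RNA for clusters 0 to 4. The peak in PGD that holds its core (chr1:10414965-10415837) had 25.0, 42.1, 19.5, 3.15 and 3.17, and the intron peak of BLVRB (chr19:40464216-40464806) 15.4, 39.3, 13.1, 3.93 and 8.97. Each of these was highest in cluster 1.

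The intron peak of MAFG (chr17:81926152-81927067) had 22.7, 47.8, 8.85, 8.36 and 18.7 ATAC CPM in clusters 0 to 4, and the intron peak of SLC7A11 (chr4:138235319-138236219) 18.3, 15.5, 9.49, 7.67 and 2.64. CYP4F11 had a start peak (chr19:15934479-15935497), without the narrower core, with 38.1, 36.0, 18.3, 3.64 and 5.80 ATAC CPM, open in clusters 0 and 1 and nearly closed in 3 and 4. The start peaks of SQSTM1, PIR and ME1 differed less. SQSTM1 (chr5:179820453-179821247) had 27.0, 43.9, 18.8, 21.4 and 18.7 ATAC CPM, with cluster 1 the highest although its RNA was highest in cluster 0. PIR (chrX:15492942-15493842) had 20.3, 27.0, 16.5, 17.0 and 21.6, with cluster 2 below cluster 1 although its RNA was as high there as in cluster 1. Clusters 2, 3 and 4 did not differ beyond their counting intervals in this peak. The ATAC share of the whole chromosome X was also low in cluster 2 (log2 of -0.71 over the other clusters, against -0.36 at the PIR start). ME1 (chr6:83430698-83431604) had 16.9 to 24.3 in all 5 clusters. An intron peak of EPHX1 without a core (chr1:225813163-225814057) was also highest in cluster 1, with 19.6, 42.1, 10.2, 3.74 and 5.54, while EPHX1 RNA was highest in cluster 0. Summed over the 5 peaks of its start interval, however, EPHX1 had 98.6, 82.0, 46.3, 59.9 and 50.6 ATAC CPM, highest in cluster 0 as in RNA. The peaks away from the starts were picked within 50 kb as those with the largest ratio between clusters, so their separation is a description.

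**Figure D4:**
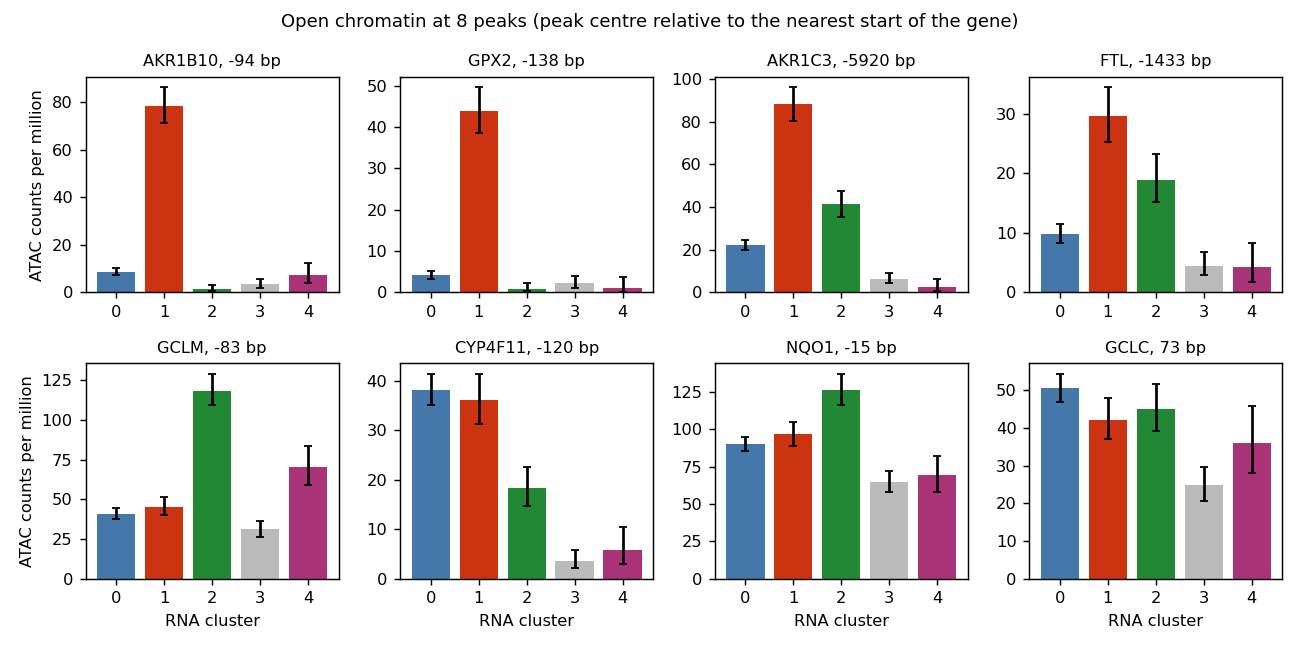
ATAC CPM (y axes, from 0) in 8 peaks at or near members by RNA cluster. Titles give the distance of the peak centre from the nearest start inside the annotated start interval. Error bars are exact 95% Poisson intervals on halved counts, since most ATAC values were even. The peaks of AKR1B10 and GPX2 are tall in cluster 1 only (78.5 and 43.8), GCLM is highest in cluster 2 (118), and NQO1 and GCLC pass 2-fold over the mean of the others in no cluster.

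GCLM was the only member called higher at its start in cluster 2, where its RNA was also the highest but did not pass 2-fold (log2 fold of 0.76). Its start peak (chr1:93909114-93909966), which holds the core printed above, had 41.0, 45.4, 118, 31.1 and 70.4 ATAC CPM in clusters 0 to 4. Cluster 4 was above clusters 0 and 1 in this peak and below both in GCLM RNA. The start peak of GCLC (chr6:53547676-53548591) had 50.6, 42.2, 45.1, 24.9 and 36.1, so cluster 2 was close to cluster 0 there although its GCLC RNA was 52.2 against 357 CPM. The start peak of NQO1 (chr16:69726252-69727115) had 90.0, 97.0, 126, 64.7 and 69.4, with cluster 2 the highest in ATAC but the third in RNA. HMOX1 had 13.2 to 17.8 ATAC CPM at its start in all 5 clusters, and an intergenic peak upstream (chr22:35357701-35358601) with 4.96, 1.06, 2.24, 21.4 and 22.4, open in cluster 3 with the RNA but also in cluster 4 without it.

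Copy number differs between tumour lines, and the share of ATAC counts on a whole chromosome moved in some of the same places. On the log2 scale over the mean of the other clusters, cluster 1 had 0.22 on chromosome 10 (AKR1C genes), -0.24 on chromosome 7 (AKR1B10) and -0.20 on chromosome 14 (GPX2). It had 0.50 on chromosome 17 (MAFG) and 0.26 on chromosome 19 (FTL and BLVRB). Cluster 0 had 0.38 on chromosome 4 (SLC7A11 and UGDH), 0.30 on chromosome 5 (SQSTM1) and 0.26 on chromosome 6 (GCLC). It had 0.23 on chromosome 16 (NQO1 and OSGIN1), 0.03 on chromosome 1 (EPHX1) and -0.09 on chromosome 12 (TXNRD1). The RNA log2 folds of SLC7A11, NQO1 and SQSTM1 there were 1.07, 1.12 and 1.26, past the threshold by less than these shifts. Cluster 2 had 0.29 on chromosome 1 (GCLM) and -0.71 on chromosome X (PIR), and cluster 3 had 0.47 on chromosome 22 (HMOX1). Cluster 2 had 0.64 on chromosome 20 (SRXN1), as large as the log2 fold of SRXN1 RNA there (0.62), which was no call. For the 82 calls, the chromosome moved the same way in 42 and by as much as the RNA in 0, and 12 were under 2-fold once the shift of the chromosome was subtracted. The shifts lay between -0.71 and 0.64 and a call needs a log2 fold of at least 1, so the 0 was fixed in advance. No share was computed for the calls of all genes, and nothing is drawn from the 42. The part of copy number at single genes was not tested.

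Other genes of the pathway were described by counts from a list of 12 regulators and 38 reported targets. Of the targets, 29 passed 10 CPM, and 7, 6, 5, 0 and 0 of them were called higher in clusters 0 to 4, and 5, 2, 9, 11 and 14 lower. These were 24.1%, 20.7%, 17.2%, 0% and 0% higher, against 5.78%, 5.79%, 7.84%, 3.94% and 4.89% of all genes, and 17.2%, 6.90%, 31.0%, 37.9% and 48.3% lower, against 9.50%, 10.7%, 15.7%, 8.70% and 10.4%. Their median log2 folds were 0.21, 0.62, -0.09, -0.66 and -0.93, against -0.05, -0.11, -0.07, -0.02 and -0.14 for all genes. The signs of these medians were those of the 34 members. In cluster 2 only the median of the targets was close to that of all genes, since both higher and lower calls had larger shares. Of the 12 regulators, 0, 0, 3, 1 and 2 were called higher in clusters 0 to 4 and 3, 2, 1, 3 and 0 lower, with medians between -0.31 and 0.07. At this number of genes 1 call is 8.33%, near the shares of all genes just given, and no order is drawn from these counts. The 3 that were higher in cluster 2, named after their values were seen, were BACH1 (183 CPM against 44.4 to 91.6 elsewhere), BACH2 (117 CPM against 6.77 to 26.2) and MAFK (70.1 CPM against 14.0 to 41.8). The other higher calls were DPP3 in cluster 3 (86.1 CPM), and MAFF and NFE2L3 in cluster 4 (23.2 and 55.4 CPM). MAFF fell short of 2-fold in the 20% portion (log2 fold of 0.88). BACH1 was called lower in cluster 3, BACH2 in clusters 0, 1 and 3, and MAFK in clusters 0 and 3. BACH proteins compete with NRF2 for the same elements, and MAFK is a small Maf that partners either. Whether these levels bear on the members was not tested.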

How the data were processed

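RNA and ATAC counts per nucleus came from 1 library of each kind for the 80% and the 20% portion. The authors deposited unnormalized counts in a matrix for each portion, made per the file headers with Cell Ranger ARC 2.0.0. The methods name hg38. Which gene annotation was counted is not stated there. The matrices hold barcodes that had been called as cells, and none was removed. Whether ATAC counts are fragments or their ends is not stated. As 90.1% of the nonzero values were even, ATAC intervals used halved counts. The long reads and the combined matrix were not used, and demuxlet labels were not used here.

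RNA clusters came from 2000 variable genes without the members, the further pathway genes and the line markers, 30 principal components, 20 neighbours and Louvain clustering in Seurat 5.3.0 (R 4.3.3), at a resolution of 0.05, the lowest that gave 5 clusters. UMIs were summed per cluster as CPM. Folds were taken over the mean of the other clusters with a pseudocount of 1 CPM, for genes with a mean of at least 10 CPM, and called at 2-fold. Nuclei of the 20% portion were given the cluster whose mean profile they correlated with most, and by this rule 98.1% of the 80% nuclei kept theirs. Scrublet (scanpy 1.11.5) marked 5.87% of nuclei as doublets. Peaks were placed with GENCODE v44 on hg38. The steps were tested on simulated data. TMM factors came from edgeR 4.0.16, used as an alternative only.

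The members and lists were chosen with earlier results of these data known. Members called in at least 1 cluster and the regulators NFE2L2, KEAP1, MAFG and SQSTM1 were given per cluster. With 1 library per portion there is no test, and intervals cover counting error only.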

Additional observations from a re-analysis of the deposited data

How the results depend on the processing

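The order of the clusters by member share (1, 0, 2, 3, 4) was the same under every alternative that gave a share, and 23 members had clusters 0 and 1 both above the other clusters under every alternative that gave CPM values. Of the 82 calls, 69 to 82 were made again, with the fewest when the median of the other clusters replaced their mean. With that median, cluster 0 had 15 members higher and 0 lower (7.46% and 6.08% of all genes), and cluster 1 had 20 higher (7.33%). The lower calls of AKR1B10 and GPX2 in cluster 0 changed sign, as both means are carried by cluster 1. ATAC-defined clusters gave a median share of 1.81% in cluster 0. Thinning to 1000 UMIs gave 1.90% in cluster 0, 1.10% in cluster 2 and 0.800% in cluster 3, and leaving out doublet calls gave 0.742% in cluster 3. The 20% portion gave 1.78%, 2.66%, 1.11%, 0.703% and 0.648% in clusters 0 to 4. Without FTL, FTH1, TXN and PRDX1 the shares were 1.17%, 1.99%, 0.552%, 0.352% and 0.335%, and without AKR1B10, AKR1C1, AKR1C2 and AKR1C3 they were 1.63%, 1.83%, 1.09%, 0.726% and 0.662%, both by construction, as fewer genes were summed. Of 586 values under the alternatives, 561 stayed within their limits. No paired analysis was possible because each portion gave 1 library of each kind. Leaving out a replicate was not possible for the same reason. Depth limits the members with few UMIs, such as CYP4F11 in clusters 3 and 4, and cluster 4 of the 20% portion.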
